A study of Mus musculus with 48 samples.

Results

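Growth factor and receptor genes of the blood cell lineages were described in hippocampal microglia of mouse pups from 3 rearing groups. The set held 2 ligand genes (Kitl and Csf1), 3 receptor genes (Csf1r, Csf3r and Il21r) and Cd34, a surface sialomucin of progenitor cells. These genes were taken by symbol as 6 of the 478 genes in the authors' deposited tables, and all 6 are in each of the 3 tables. The groups were UPS and LB, which are the early-life stress conditions of the study, and the control rearing group CTL. As background, LB stands for rearing with limited bedding and UPS for unpredictable postnatal stress. All animals were Balbc/Byj pups of 17 days of age, with 16 libraries per rearing group, 8 of each sex, and 1 animal per library. About 60000 sorted microglia were lysed for each animal, and 4 to 5 litters supplied the 8 pups of a group and sex, so littermates are present (both per the labels' protocols). Transcripts were counted without amplification on the nCounter glial panel, in 4 batches that each held 2 libraries of every group and sex.

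Microglia are macrophages, and CSF1R signalling keeps them alive. CSF1R is a receptor tyrosine kinase with the ligands CSF1 and IL-34, and it belongs to the same receptor family as KIT, the receptor of KIT ligand. G-CSF and IL-21 act through receptors without a kinase of their own, which recruit JAK kinases and STAT factors, while KIT and CSF1R signal through PI3-kinase and Ras, among other routes.

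The deposited tables hold, for each gene and each pair of groups, a log2 ratio, a p-value and an adjusted p-value, and values per library were not analysed here. Neither headers nor labels name the numerator of a ratio, and the ratios of the 3 tables add up under either reading, to within 0.003. Signs are therefore given as deposited. If the later-named group of each deposited table is on top, positive ratios stand for higher transcript levels in UPS than in CTL, in LB than in CTL, and in UPS than in LB. Otherwise they stand for lower levels there. Which group stood apart from the others does not depend on this reading. Tests are the authors' p-values with Benjamini-Hochberg adjustment over the 478 genes, with a threshold of 0.05, and intervals are 95% intervals from standard errors recovered from ratio and p. P-values and intervals treat littermates as independent and are too small and too narrow if littermates resemble each other.

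By the pairwise tests Kitl was the member that differed, and UPS was the group that stood apart. It was the only one of the 6 to pass in any pair of groups, and it did so in both pairs that contain UPS. The size of the difference was 1.53-fold between UPS and CTL and 1.73-fold between UPS and LB. Cd34 had the next largest ratios, about 1.3-fold in size, with CTL apart from both stress groups, but it passed in no pair. An F test over the 3 groups together, described below, called Cd34 (adjusted p = 0.0333 by Benjamini-Hochberg) as well as Kitl. Csf1r, the receptor gene on which microglia depend, had intervals that stayed within 1.08-fold in size in every pair.

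Kitl encodes KIT ligand, also called stem cell factor, which supports hematopoietic stem cells, mast cells and melanocytes. The authors' deposited tables gave Kitl a log2 ratio of 0.61 between UPS and CTL (p = 0.000145, adjusted p = 0.00989) and 0.79 between UPS and LB (p = 3.52e-06, adjusted p = 0.00028). The recovered intervals ran from 0.32 to 0.91 for UPS and CTL and from 0.49 to 1.08 for UPS and LB. Between LB and CTL the authors' deposited table gave a Kitl log2 ratio of -0.17 (p = 0.251, adjusted p = 0.669), with an interval from -0.47 to 0.12. UPS thus lay apart from both other groups, LB and CTL did not differ beyond their error, and the LB and CTL interval includes a difference of up to 1.39-fold in size. By size of the log2 ratio Kitl ranked 4 of 478 genes between UPS and CTL and 3 of 478 between UPS and LB. Its rank by p was 7 and 6, because its standard error of 0.15 was larger than that of 92.7% of the genes.

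The share of all genes that passed was 4.81% between UPS and CTL and 6.28% between UPS and LB, against 1 of the 6 members in each. Between LB and CTL no member passed, and the share of all genes was 0%. At an unadjusted p below 0.05, Cd34 and Csf3r were counted between LB and CTL, where 11.7% of all genes were. Kitl, Cd34 and Il21r were counted between UPS and CTL, where 16.3% of all genes were. Kitl, Il21r and Csf3r were counted between UPS and LB, where 18.8% of all genes were. The median size of the log2 ratio over the 6 members was 0.10 between UPS and CTL, 0.14 between UPS and LB and 0.17 between LB and CTL. Over all 478 genes it was 0.051, 0.054 and 0.043 in the same comparisons. Most members were measured less precisely than most genes, and larger errors alone give larger ratios. The standard error exceeded that of 92.7% of the genes for Kitl, 90.4% for Cd34 and 87.4% for Csf1. It exceeded that of 63.2% for Il21r, 51.0% for Csf3r and 14.9% for Csf1r. The part of imprecision in the medians was not tested. The members did not share a sign: 1 of 6 was positive between UPS and CTL, 4 of 6 between UPS and LB and 2 of 6 between LB and CTL.

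**Figure D1:**
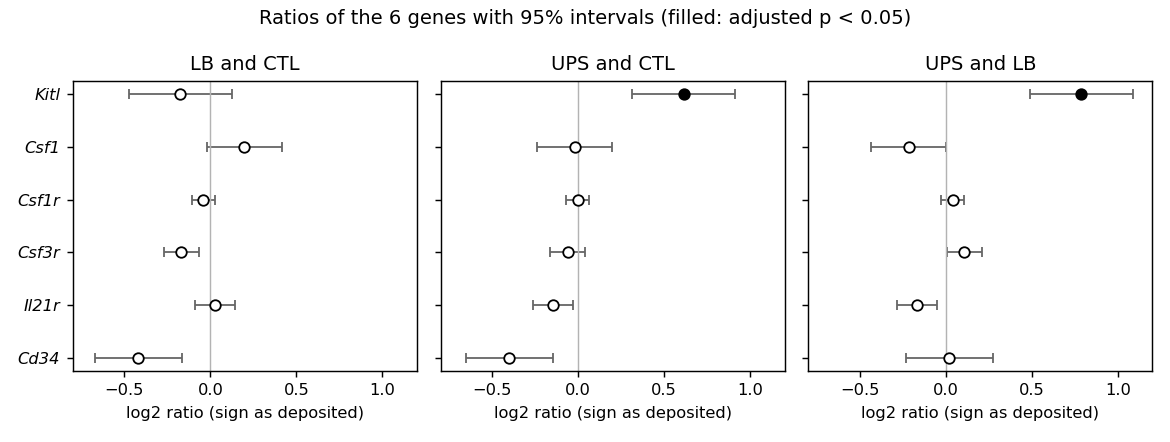
Log2 ratios of the 6 genes (horizontal axis, sign as deposited) in the 3 pairs of rearing groups, with recovered 95% intervals as bars and 16 libraries per group. Only Kitl is filled (adjusted p below 0.05), at 0.61 between UPS and CTL and 0.79 between UPS and LB, while the intervals of Csf1r lie close around 0 in all 3 panels.

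Csf1, the ligand gene of the receptor that microglia need, showed another arrangement, with LB at a distance from the other groups that its error did not resolve. The authors' deposited tables gave Csf1 a log2 ratio of 0.20 between LB and CTL (p = 0.0765, adjusted p = 0.465) and -0.22 between UPS and LB (p = 0.0508, adjusted p = 0.267). Between UPS and CTL the ratio in the authors' deposited table was -0.021 (p = 0.847, adjusted p = 0.937), with an interval from -0.24 to 0.20. The interval for LB and CTL ran from -0.022 to 0.41 and that for UPS and LB from -0.43 to 0.00079, so each of them reached 0. The deposited ratios of the ligand genes Kitl and Csf1 carried opposite signs in every pair. Every Csf1 interval included 0, as did that of Kitl between LB and CTL, so no direction can be given for Csf1. Whether the ratios of these genes differ from each other could not be tested without values per library.

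Csf1r was measured more precisely than any other member, with a recovered standard error of 0.033 on the log2 scale. Log2 ratios of Csf1r in the authors' deposited tables were -0.0024 between UPS and CTL (p = 0.943, adjusted p = 0.98), 0.039 between UPS and LB (p = 0.245, adjusted p = 0.567) and -0.042 between LB and CTL (p = 0.217, adjusted p = 0.634). The sign between UPS and CTL turned when the ratios were centred on the median of all genes, to a log2 ratio of 6e-05, so no direction can be given for it. On the linear scale the intervals ran from 0.953-fold to 1.05-fold between UPS and CTL, from 0.981-fold to 1.08-fold between UPS and LB, and from 0.927-fold to 1.02-fold between LB and CTL. A Csf1r log2 ratio of 0.11 would have had the largest p that still passed between UPS and CTL, whereas Kitl needed 0.48, Csf1 0.35 and Cd34 0.41.

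The cytokine receptor genes Csf3r and Il21r had small ratios of opposite sign between UPS and LB. Csf3r encodes the receptor of G-CSF, the cytokine that drives neutrophil production. For Csf3r the authors' deposited tables gave -0.17 between LB and CTL (p = 0.00204, adjusted p = 0.194), -0.062 between UPS and CTL (p = 0.231, adjusted p = 0.556) and 0.11 between UPS and LB (p = 0.0443, adjusted p = 0.245). In order of these ratios LB and CTL formed the ends and UPS lay between them, and no pair passed. Between LB and CTL Csf3r ranked 4 of 478 genes by p, in a table in which no gene passed. Its interval there was -0.27 to -0.065.

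Il21r encodes the receptor of IL-21, a T cell cytokine whose receptor pairs with the common gamma chain. By its ratios UPS was the outer group, as for Kitl, but with the opposite sign and with no pair past the threshold. The Il21r log2 ratio in the authors' deposited tables was -0.15 between UPS and CTL (p = 0.0152, adjusted p = 0.177), -0.17 between UPS and LB (p = 0.00505, adjusted p = 0.0635) and 0.025 between LB and CTL (p = 0.671, adjusted p = 0.902). The intervals were -0.26 to -0.029 between UPS and CTL and -0.29 to -0.054 between UPS and LB, or at most 1.22-fold in size. LB and CTL were not separated, with an interval from -0.091 to 0.14.

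Cd34 marks hematopoietic progenitors and vascular endothelium, and its ratios placed CTL away from both stress groups, with none of the pairs past the threshold. The authors' deposited tables gave Cd34 a log2 ratio of -0.42 between LB and CTL (p = 0.0017, adjusted p = 0.194) and -0.40 between UPS and CTL (p = 0.00257, adjusted p = 0.0511). Both ratios had the same sign and share the 16 CTL libraries. Between UPS and LB the log2 ratio in the authors' deposited table was 0.018 (p = 0.885, adjusted p = 0.968), with an interval from -0.23 to 0.27. UPS and LB therefore did not differ beyond their error, though a difference of up to 1.21-fold lies within that interval. The intervals against CTL were -0.67 to -0.17 for LB and -0.65 to -0.15 for UPS, or 1.12-fold to 1.59-fold and 1.11-fold to 1.57-fold in size. Cd34 ranked 3 of 478 by p between LB and CTL and 24 of 478 between UPS and CTL. Between UPS and CTL 23 genes passed, so Cd34 was the next gene by p. A joint Benjamini-Hochberg adjustment over all 3 tables called Cd34 between LB and CTL (adjusted p = 0.0498), where it called 0.628% of all genes. It did not call Cd34 between UPS and CTL (adjusted p = 0.0635), where it called 3.77% of all genes, Kitl among them.

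**Figure D2:**
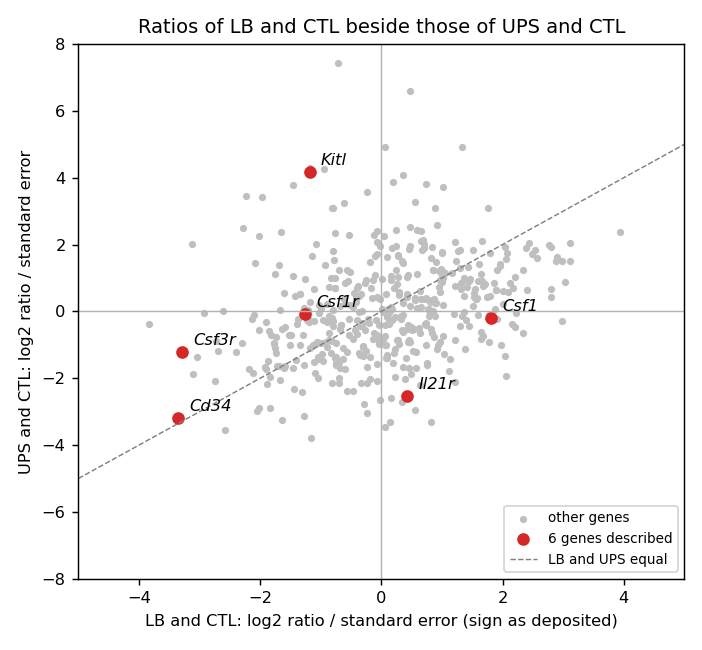
Log2 ratio divided by its standard error for LB and CTL (horizontal axis, sign as deposited) and for UPS and CTL (vertical axis), for 478 genes, with the 6 genes described in red; both axes share the CTL libraries. Kitl sits high at 4.16 on the vertical axis and -1.18 on the horizontal one, Cd34 lies on the dashed line of equal LB and UPS, and Csf1 (1.82) and Csf3r (-3.29) are displaced mainly along the horizontal axis.

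A test of any difference among the 3 groups has no sign and so does not depend on the reading of the headers. An F statistic with 2 numerator degrees of freedom was computed for every gene from the 3 deposited log2 ratios and the recovered standard error, with Benjamini-Hochberg adjustment over 478 genes. It called 2 of the 6 members, where 6.90% of all genes were called. Kitl had F = 15.7 (p = 7.96e-06, adjusted p = 0.000634) and ranked 6 of 478. Cd34 had F = 7.17 (p = 0.00209, adjusted p = 0.0333) and ranked 30 of 478, and its call was lost with Benjamini-Yekutieli adjustment (adjusted p = 0.225). Csf3r (F = 5.54, adjusted p = 0.0857), Il21r (F = 5.10, adjusted p = 0.113), Csf1 (F = 2.46, adjusted p = 0.337) and Csf1r (F = 0.990, adjusted p = 0.611) did not pass. The F combines the same ratios as the pairwise comparisons and is not separate evidence.

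**Figure D3:**
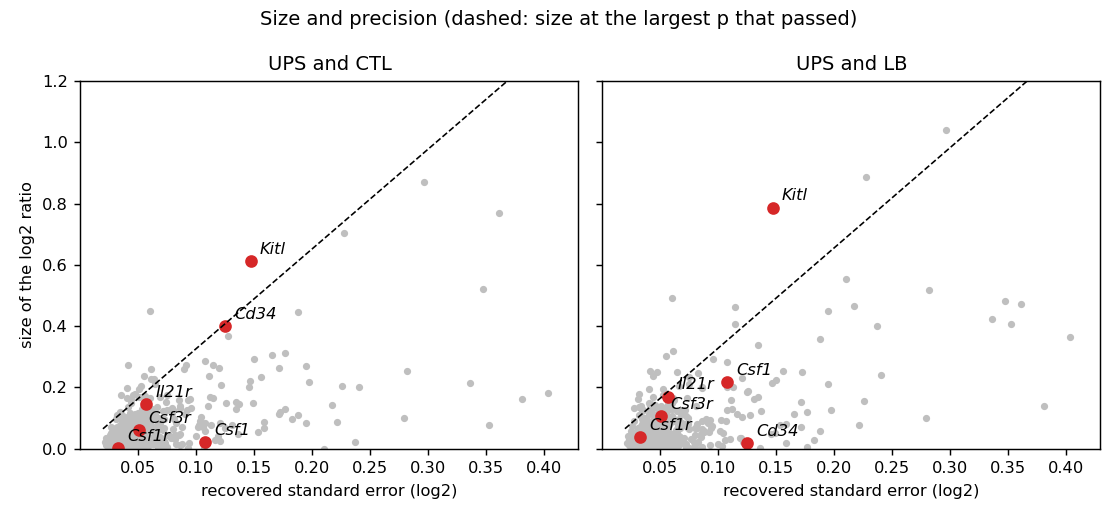
Size of the log2 ratio (vertical axis) against the recovered standard error on the log2 scale (horizontal axis) for 478 genes in the comparisons with UPS, with the 6 genes described in red and a dashed line at the largest p that passed (0.00222 between UPS and CTL, 0.00212 between UPS and LB). Kitl lies above the line in both panels, Cd34 lies just below it between UPS and CTL, and Csf1r has the smallest standard error of the 6.

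The genes most like each member were those whose log2 ratios against CTL, for LB and for UPS, lay nearest to the member's, each divided by the gene's own standard error. The likeness rests on 3 group levels only. Nearest to Kitl were Cables1, a CDK5-binding protein, Ncf1, a subunit of the phagocyte NADPH oxidase, and Pik3cb, a catalytic subunit of PI3-kinase. Cables1 had log2 ratios of 0.24 between UPS and CTL and 0.30 between UPS and LB, Ncf1 had 0.26 and 0.32, and Pik3cb had 0.18 and 0.25 in the authors' deposited tables. Each of these genes passed in both comparisons, and each ratio was less than that of Kitl. Nearest to Cd34 were Cysltr1, Ctss and Epb41l3. Cysltr1, a leukotriene receptor, had log2 ratios of -0.23 between UPS and CTL and -0.16 between LB and CTL in the authors' deposited tables. Cysltr1 passed between UPS and CTL (adjusted p = 0.0310 by Benjamini-Hochberg). Nearest to Csf1 were Camk2g, P2ry13 and Nes, and nearest to Csf1r were Rtn4, Atg2b and Trim68. Nearest to Csf3r were Trim3, Prkab2 and Sh2d1a, and nearest to Il21r were Ranbp9, Tln2 and Psmd14. None of these 12 genes passed in any pair, and neither did Ctss or Epb41l3.

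Few other genes of these pathways were in the tables, and the KIT receptor gene, Il34, Csf3 and Il21 were not analysed here. Of 15 other hematopoietic ligand genes listed, only Tgfb1 was measured, and it did not pass, with log2 ratios of -0.047 between UPS and CTL, -0.076 between UPS and LB and 0.029 between LB and CTL in the authors' deposited tables. Of 36 other growth factor and cytokine receptor genes 4 were measured. Tgfbr1, a TGF-beta receptor, passed with the sign of Kitl between UPS and CTL (0.11) and between UPS and LB (0.18) in the authors' deposited tables. In these comparisons 4.81% and 6.28% of all genes passed, most of them with a positive sign. The receptor genes Il10ra, Ifnar1 and Ifngr2 did not pass in any pair.

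Downstream of KIT and CSF1R, 8 genes of PI3-kinase, Akt and mTOR were measured. Of these Pik3cb and the regulatory subunit gene Pik3r1 passed, both in UPS and CTL and in UPS and LB and both with the sign of Kitl. Over all genes 4.81% and 6.28% passed in these comparisons. Of the passing genes, 17 of 23 and 22 of 30 had positive ratios, so sharing the sign of Kitl was common among them. Pik3r1 had log2 ratios of 0.16 between UPS and CTL and 0.17 between UPS and LB in the authors' deposited tables. The median log2 ratio over the 8 genes was 0.016 between UPS and CTL and 0.018 between UPS and LB, beside -0.0025 and -0.010 over all genes. The other measured genes of this list, Akt1 and Mtor among them, did not pass in any pair. PI3-kinase subunits serve many receptors.

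None of 10 Ras and MAP kinase genes passed in any pair. Map2k1, the kinase MEK1, was at -0.081 between UPS and CTL in the authors' deposited table (p = 0.0569). Of 6 JAK-STAT genes none passed. Stat3, which G-CSF and IL-21 receptors activate, had 0.070 between UPS and CTL (p = 0.0138) in the authors' deposited table. None of 4 receptor-proximal kinase, adaptor and phosphatase genes passed, with Ptprc, the leukocyte phosphatase CD45, at -0.10 between LB and CTL (p = 0.0263) and the protein kinase C gene Prkcd at 0.078 between UPS and CTL (p = 0.0619) in the authors' deposited tables. None of 6 myeloid transcription factor genes passed. Spi1, which encodes PU.1, an activator of Csf1r, was at -0.037 between UPS and CTL and -0.017 between LB and CTL in the authors' deposited tables. Mef2a was at 0.096 between UPS and CTL (adjusted p = 0.0597 by Benjamini-Hochberg) and the immediate early factor Egr1 at 0.45 between LB and CTL (p = 0.0709) in the authors' deposited tables.

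**Figure D4:**
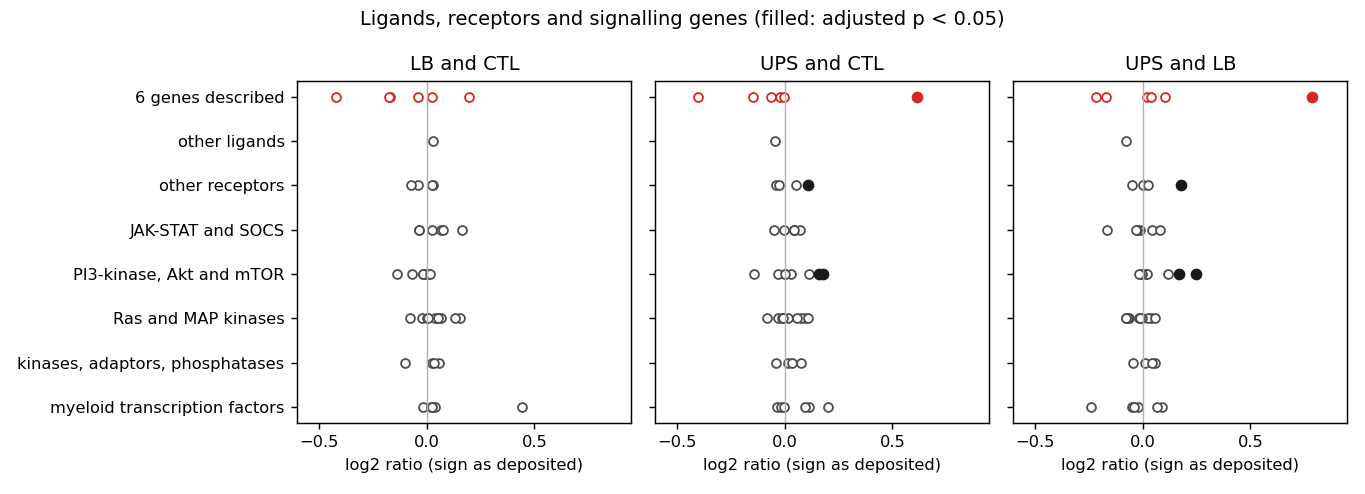
Log2 ratios (horizontal axis, sign as deposited) of the 6 genes described and of the measured genes of 7 lists of related ligands, receptors and signalling genes in the 3 pairs of rearing groups, one point per gene. Filled points passed (adjusted p below 0.05) and appear only for Kitl, Tgfbr1, Pik3cb and Pik3r1, all with positive signs and all in comparisons with UPS.

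All 14 listed microglial marker genes were measured, but the tables analysed here give no levels, so the cell type label was not checked further. Of these 14 genes only Tmem119 passed, between UPS and LB (0.46 in the authors' deposited table). Kitl, Csf3r and Cd34 are also known from other cells, and in sorted cells a different share of another cell type and a different transcript level per cell cannot be told apart. None of 9 granulocyte and none of 6 mast cell and progenitor marker genes were in the tables. The single endothelial and mural marker of 10 that was measured, Pecam1, had log2 ratios of 0.033 between UPS and CTL, 0.068 between UPS and LB and -0.035 between LB and CTL in the authors' deposited tables and did not pass. Of 2 measured astrocyte genes of 8, Slc1a3 passed in the comparisons of Kitl and with its sign, at 0.21 between UPS and CTL and 0.25 between UPS and LB in the authors' deposited tables, while Glul (0.11 and 0.15 in the authors' deposited tables) did not. Of 2 border macrophage genes of 11, Stab1 passed between UPS and CTL (0.21) and between UPS and LB (0.20) in the authors' deposited tables, while Apoe (0.13 and 0.13 there) did not. The single lymphocyte gene of 17, Klrd1, had -0.77 between UPS and CTL and -0.30 between LB and CTL in the authors' deposited tables and did not pass. The 4 oligodendrocyte lineage genes of 14 did not pass either, with Cspg4 at 0.45 between UPS and LB (p = 0.0254) and Mag at -0.15 between LB and CTL (p = 0.0616) in the authors' deposited tables. Neither did Gad1, the single neuronal gene of 10, at -0.047 between UPS and CTL in the authors' deposited table. The part of such cells in the Kitl, Csf3r and Cd34 ratios was not tested.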

How the data were processed

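Per the series text, the authors ran nSolver advanced analysis on nCounter counts with batch as a covariate, after a first analysis of genes above 20 counts. Normalization and version: not given in the sources used here. Per the file headers, the deposited tables give a log2 fold change, a linear ratio (equal to 2 to the power of the log2 value within 0.494%), a p-value and its Benjamini-Hochberg adjusted form for 478 genes. Depth per library is unknown, and no model was refitted.

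P-values were adjusted again over each table, and 0 calls differed from the deposited column. Standard errors were the log2 ratio over the t quantile of its p, taken from the table with the smallest p. With 42 residual degrees of freedom (48 libraries, rearing and batch) the standard errors of a gene differed least between tables (median 0.223% over 120 genes with p at or below 0.5 in every table, against 0.278% to 0.321% for other models of all libraries and 1.37% to 1.67% for fits of 2 groups). The choice among the models of all libraries is not settled. For Kitl they differed by 1.91%, the most of the 6 genes. The plan allowed for deposited standard errors, which were not found in the tables.

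The F is the sum of the squared ratios over 3 times the squared standard error. Recovery was tested on simulated data, with independent libraries drawn from the same model of rearing and batch. That test checked arithmetic and rounding. It could not show effects of littermates or of models that differ between genes. Named genes were the 6 members, list genes that passed in any pair or otherwise up to 2 with the smallest p of their list, and the 3 genes nearest each member. Spi1 and genes named to complete a list were chosen after their values were seen. A few list genes are left unreported. Members and lists were chosen with earlier results of these data known. The 6 symbols matched the GRCm38.p6 gene table. Python 3.11.15, numpy 2.4.6, scipy 1.17.1 and pandas 2.3.3 were used.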

Additional observations from a re-analysis of the deposited data

How the results depend on the processing

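The alternatives were the authors' adjusted p, joint adjustment of the 3 tables, Benjamini-Yekutieli and Bonferroni adjustment, centring on each table's median and, for the F, other residual degrees of freedom. Between UPS and LB the member count stayed at 1 under all 5 alternatives. Between UPS and CTL it was 0 with Benjamini-Yekutieli (Kitl adjusted p = 0.0668) and 0 with Bonferroni (0.0693). Between LB and CTL it was 1, Cd34, with joint adjustment. By the F it was 1 with Benjamini-Yekutieli and 1 with Bonferroni, where Cd34 was lost (adjusted p = 0.225 and 1). These 2 adjustments are stricter by construction. Centring turned the sign of Csf1r between UPS and CTL (adjusted p = 0.999). Of the other results for single members, 120 kept their sign and side of the threshold. Over all genes, calls between UPS and CTL numbered 23 (17 positive, 6 negative), 4 with Benjamini-Yekutieli, 5 with Bonferroni and 20 after centring (17 positive, 3 negative). Between UPS and LB they numbered 30, 13 with Benjamini-Yekutieli and 11 with Bonferroni. By the F they numbered 33, 12 and 11 in that order. Between LB and CTL they numbered 0, and 3 with joint adjustment. No paired analysis was possible because the tables hold no values per library, and for the same reason no replicate could be left out and no value examined by sex, litter or batch.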
